A study of Mus musculus with 2 samples.

Results

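Amino acid and peptide transporters are the membrane carriers through which the small intestine takes up digested protein and through which every cell feeds its own protein synthesis. They were described here in the jejunum, the middle stretch of the small intestine, of wild-type mice and of mice labelled XBP1 knock-out. The set holds 36 carrier genes of the solute carrier (Slc) families, chosen by gene symbol. All 36 had at least 1 probe set that the platform annotation assigns to that gene alone, and 31 were measured, out of 12826 measured genes among 18193 with such a probe set.

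The series consists of 2 arrays, 1 for each genotype, and each carried total RNA pooled from 3 mice. The RNA came from scrapings of the intestine, so that epithelium and the other cells of the mucosa were read together. The labels give neither strain, age and sex nor which part of Xbp1 was removed and in which cells, and they name no treatment. With 1 array per genotype there was no replicate, no p-value could be given, and precision is limited by having so few arrays.

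Carriers of these families serve both the body and the single cell. Absorptive carriers sit in the brush border, the microvillus membrane facing the gut lumen, or in the basolateral membrane facing the blood, and together they move amino acids and small peptides across the enterocyte. Stress-inducible carriers supply the cell itself. They are known targets of ATF4, the transcription factor made when amino acids run short or when unfolded protein in the endoplasmic reticulum activates the kinase PERK. XBP1, activated by the sensor IRE1, belongs to a parallel branch of the same unfolded protein response. Many Slc7 carriers are light chains that reach the membrane only when bound to a heavy chain, Slc3a2 in most cell types and Slc3a1 in the brush border.

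Values are scaled signals, and log2 ratios are taken as knock-out-labelled over wild-type pool. Signals under a floor of 68.1, the median over both arrays, were set to that floor, and a gene counted as measured if 1 array exceeded it. Where the other array was below the floor the ratio is a bound. A gene was read by its brightest probe set, and signals of different probe sets cannot be set against each other as transcript levels. As a technical yardstick, the SD between ratios of different probe sets for the same gene was 0.37 across 4350 genes, which holds no variation between mice. Xbp1 itself stood at 8143 in the wild-type and 6782 in the knock-out-labelled pool, a log2 ratio of -0.26. The array's probe sets may lie outside the deleted part, so this value checks neither label and every direction rests on the labels.

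The C/EBP-ATF response element, the DNA element through which ATF4 acts, was searched near the transcript starts of the carriers, since the stress-inducible carriers are defined as targets of ATF4. Its core, TGATGNAA on either strand, was counted in promoters of 300 bases, from 250 before the start to 50 bases from the start onward, taken from RefSeq on GRCm38.p6. At least 1 promoter was given for 29 of the 36 carriers, 42 promoters in all. The 7 without one, Slc1a5, Slc7a3, Slc7a5, Slc6a6, Slc38a3, Slc7a2 and Slc38a1, were not searched. The core occurred in 3 of these 29 genes, 10.3%, and in 1219 of all 27025 genes with a promoter, 4.51%. By promoter it occurred in 4 of the 42, 9.52%, against 3.97% of all 32851. The carriers with a match were Slc7a11, the cystine and glutamate exchanger, Slc1a4, an exchanger of alanine, serine and cysteine, and Slc7a7, the basolateral light chain for dibasic amino acids. None of the 8 brush border carriers held it. The stretches below show the matches in capitals, on the strand of the gene, together with those of 2 ATF4-linked genes that are no carriers, Asns for asparagine synthetase and Chac1 for a glutathione-degrading enzyme.

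Slc7a11, chr3:50443639-50443698, minus strand: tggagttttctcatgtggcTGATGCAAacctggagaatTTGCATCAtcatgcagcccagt
Slc1a4, chr11:20332707-20332766, minus strand: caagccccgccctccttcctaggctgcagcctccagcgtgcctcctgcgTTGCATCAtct
Slc7a7, chr14:54418050-54418109, minus strand: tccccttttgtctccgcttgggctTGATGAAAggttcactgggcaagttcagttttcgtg
Asns, chr6:7693201-7693260, minus strand: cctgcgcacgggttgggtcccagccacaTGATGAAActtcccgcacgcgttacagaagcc
Chac1, chr2:119351023-119351082, plus strand: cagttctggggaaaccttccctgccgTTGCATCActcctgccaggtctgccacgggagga

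Slc7a11 carried 2 matches in opposite orientation whose first bases lay 19 bases apart, at 66 and 47 bases before the start (-66 and -47). In Slc1a4 the match ran across the start, from -4 to 3. Slc7a7 has several annotated starts, and the match shown began at -141 of one of them. A second match in Slc7a7 began at -1 of the same start, which is -243 of another. A match is a string of letters and no proof of binding, and a gene without one in this window may carry the element elsewhere.

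TGACGTG, the core of an unfolded protein response element to which XBP1 and its relative ATF6 are known to bind, was searched in the same windows on either strand. It shares no overlapping match with the C/EBP-ATF core in the carriers. It occurred in 601 of all 27025 genes, 2.22%, and in 2.01% of all promoters. Among the carriers only Slc7a6, a light chain for dibasic and neutral amino acids, and Slc15a2, a high-affinity peptide carrier, held it, shown here in capitals.

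Slc7a6, chr8:106168803-106168862, plus strand: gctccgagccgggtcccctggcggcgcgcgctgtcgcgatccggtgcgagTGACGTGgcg
Slc15a2, chr16:36784973-36785032, minus strand: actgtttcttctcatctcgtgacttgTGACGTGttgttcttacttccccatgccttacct

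Neither gene was past 2-fold. Both had ratios above 0, with 0.32 for Slc7a6 and at least 0.79 for Slc15a2, and the wild-type signals of both were under 2 times the floor.

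**Figure D1:**
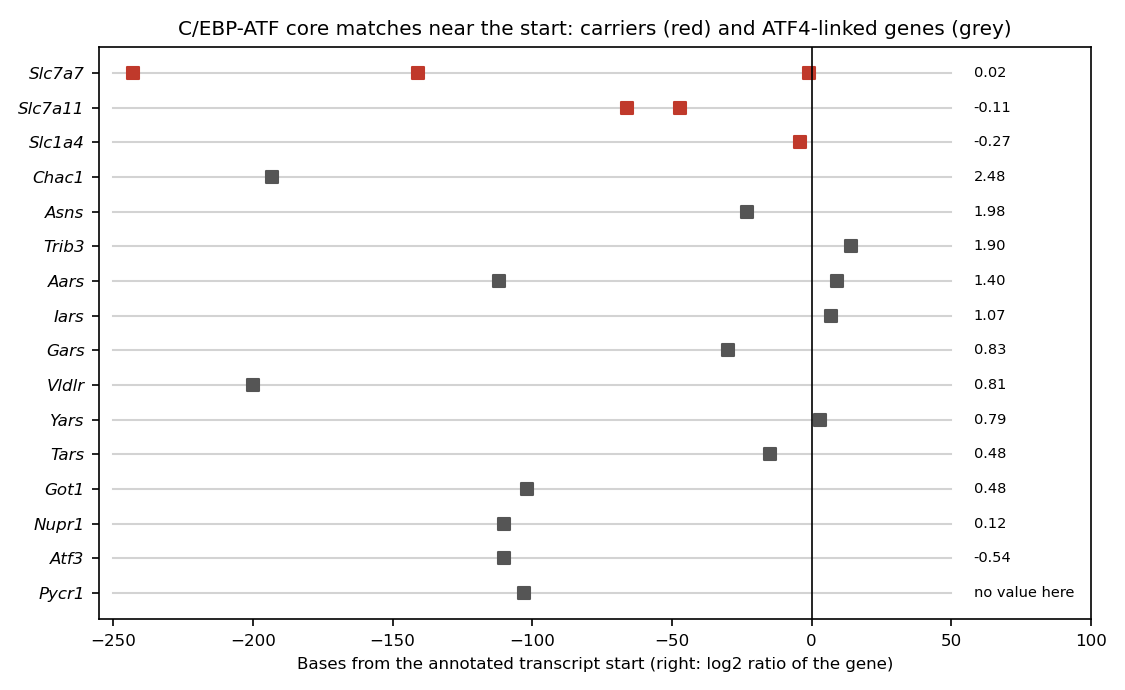
Positions of matches to the C/EBP-ATF core, in bases from each annotated transcript start, for the 3 carriers (red squares) and 13 genes of the ATF4, synthesis enzyme and synthetase lists (grey squares) that held one; a match near more than 1 annotated start is drawn for each. The number at the right is the gene's log2 ratio. It ran from -0.27 to 0.02 for the carriers. Among the other genes it ran from -0.54, for Atf3, to 2.48, for Chac1.

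The stress-inducible carriers were split. Of 9 members, all measured, Slc7a1 and Slc7a5 were at least 2-fold higher in the knock-out-labelled pool, 0 were at least 2-fold lower, and 6 had ratios below 0. The shares over all measured genes were 2.25% higher and 5.08% lower by that measure. The median log2 ratio of the 9 carriers was -0.11, and that of all measured genes was also -0.11.

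Slc7a1, the uniporter for arginine and lysine found in most dividing cells, had signals of 675 (wild-type) and 1667 (knock-out-labelled), 2.47-fold higher. Another of its probe sets read 589 and 1232, 2.09-fold higher, and the third was below the floor on both arrays. It was the only carrier past 2-fold with another measured probe set. Over the 9 other ways of processing listed for single genes, its log2 ratio ran from 1.19 to 2.09.

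Slc7a5, the light chain of the exchanger for large neutral amino acids such as leucine, went from 89.0 to 181, 2.04-fold higher, on its only probe set. The wild-type signal lay close to the floor, and with the floor raised to the 75th percentile the gene was no longer measured. Slc3a2, the heavy chain that Slc7a5 needs, went the other way by a small amount, from 13972 to 11637, a log2 ratio of -0.26. That ratio is smaller than the scatter between probe sets, and its sign is not settled: it was -0.03 after quantile normalization, 0.06 with labelling spikes made equal and 0.52 with hybridisation spikes made equal.

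Slc38a2, the sodium-coupled carrier for small neutral amino acids, went from 1847 to 2678, a log2 ratio of 0.54 that stayed under 2-fold. Its other probe sets gave 0.08 and, with the knock-out-labelled signal below the floor, at most -0.78, so the probe sets of this gene disagreed. Slc1a5, an exchanger of glutamine and other neutral amino acids, had the lowest ratio of the group among members above the floor on both arrays, from 364 to 209, a log2 ratio of -0.80. A dimmer probe set of Slc1a5 gave at most -0.72.

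Slc6a9, a glycine carrier, read 592 and 526, a log2 ratio of -0.17, against 0.06 on its second probe set. The remaining 3 members were close to the limit of measurement. Slc7a11 went from 73.7 to below the floor, Slc7a3, a relative of Slc7a1, from 73.2 to below the floor, and Slc1a4 from 83.4 to 69.0. Of the 6 stress-inducible carriers with a promoter, 2 held the C/EBP-ATF core, Slc7a11 and Slc1a4. Both were among these dim members, so a lower level in the knock-out-labelled pool could hardly have been seen. No promoter of Slc7a1 held the core within this window, and Slc7a5, Slc1a5 and Slc7a3 could not be searched.

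**Figure D2:**
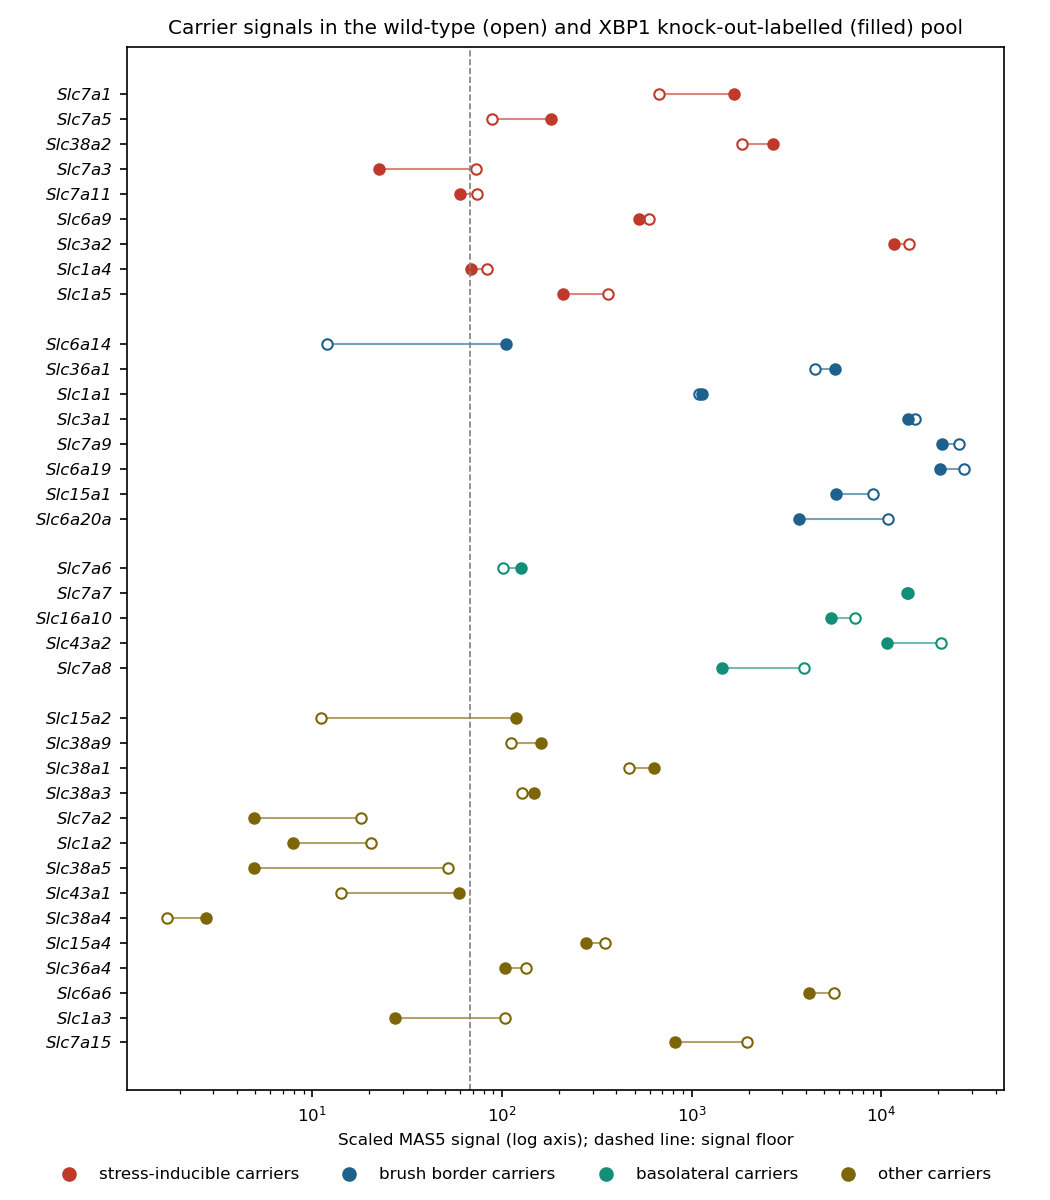
Scaled signals of the 36 carriers on a log axis, 1 row per gene, with the wild-type pool as an open circle and the knock-out-labelled pool as a filled circle of the group's colour; the dashed line is the signal floor of 68.1, below which values have no order. Slc7a1 shifted from 675 to 1667, Slc6a20a from 10822 to 3678 and Slc7a8 from 3930 to 1438, while Slc7a7 and Slc1a1 stayed almost in place.

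Other gene lists linked to ATF4 had medians well above 0 on the same arrays. Of 19 measured cytosolic aminoacyl-tRNA synthetases, which load amino acids onto tRNA, all 19 had ratios above 0 and a median of 0.80. By 2-fold, 5 were higher and 0 lower. Wars, for tryptophan, had 1.44, Aars, for alanine, 1.40 and Vars, for valine, 1.20, and at the lower end Lars, for leucine, had 0.41, Hars, for histidine, 0.31 and Qars, for glutamine, 0.15. Enzymes of amino acid and one-carbon synthesis had a median of 0.55 over 14 members, 5 of them higher by 2-fold and 0 lower. Asns stood at 1.98, the mitochondrial folate enzyme gene Mthfd2 at 1.80 and Psat1, of serine synthesis, at 1.29, against 0.04 for Aldh18a1, of proline synthesis.

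ATF4 factors and feedback genes had a median of 0.53 over 15 members, 4 of them higher by 2-fold and 0 lower. Atf5 had the highest ratio at 4.24, followed by Chac1 at 2.48 and Ddit3, which encodes CHOP, at 2.36. Atf3, Ddit4 and Stc2 had ratios below 0. Ratios above 0 were found for 12 of 15 ATF4 factors, 12 of 14 synthesis enzymes and 19 of 19 synthetases. They were found for 3 of the 9 stress-inducible carriers and for 5105 of all 12826 measured genes. Ratios below 0 thus made up 66.7% of these carriers, close to the 60.2% of all measured genes. The carriers' count depends on the scaling: it was 5 of 8 after quantile normalization, with a median of 0.01, and 7 of 8 with labelling spikes made equal, with a median of 0.11. In these 2 settings the median of all measured genes was -0.01 and 0.20. The medians of the other 3 lists stayed above 0 under each of the 9 ways of processing tried. Making labelling or hybridisation spikes equal could not have put them below 0, since it raised the median of all measured genes to 0.20 and 0.62. With only probe sets without a suffix, however, the ATF4 factors had a median of 0.24 over 11 genes with 2 higher by 2-fold. The synthetases then had 15 of 17 ratios above 0 and 1 lower by 2-fold, and 17 of 19 above 0 with the median over probe sets. Their count higher by 2-fold ran from 3 with the higher floor to 18 with hybridisation spikes made equal. In these settings 1.18% and 20.6% of all measured genes were higher by 2-fold. Whether the carriers differ from those lists was not tested, as 1 array per genotype allows no test.

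Matches to the C/EBP-ATF core were found in 13 of 41 genes of these 3 lists that had a promoter, 31.7%, against 4.51% of all genes. The 12 of them that were measured had a median log2 ratio of 0.82 with 5 at least 2-fold higher, and the 27 measured genes without a match had a median of 0.53 with 6 at least 2-fold higher. Over all measured genes with a promoter, those of the 3 lists included, the 306 with a match had a median of -0.10. Of these 306, 15 were at least 2-fold higher, 4.9%, against 2.25% of all measured genes, and 5 of the 15 belonged to the 3 lists. The 10050 without a match also had a median of -0.10, and 206 were at least 2-fold higher. Among the carriers with a match the ratios were -0.27 for Slc1a4, at most -0.11 for Slc7a11 and 0.02 for Slc7a7.

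The cystine exchanger Slc7a11 works for glutathione synthesis, and its partner genes were looked at for that reason. Of 9 measured genes of glutathione and oxidant defence, only Chac1 passed 2-fold, upward, and the median was 0.11. Gclc and Gclm, the subunits of the enzyme that starts glutathione synthesis, had log2 ratios of 0.18 and -0.43.

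**Figure D3:**
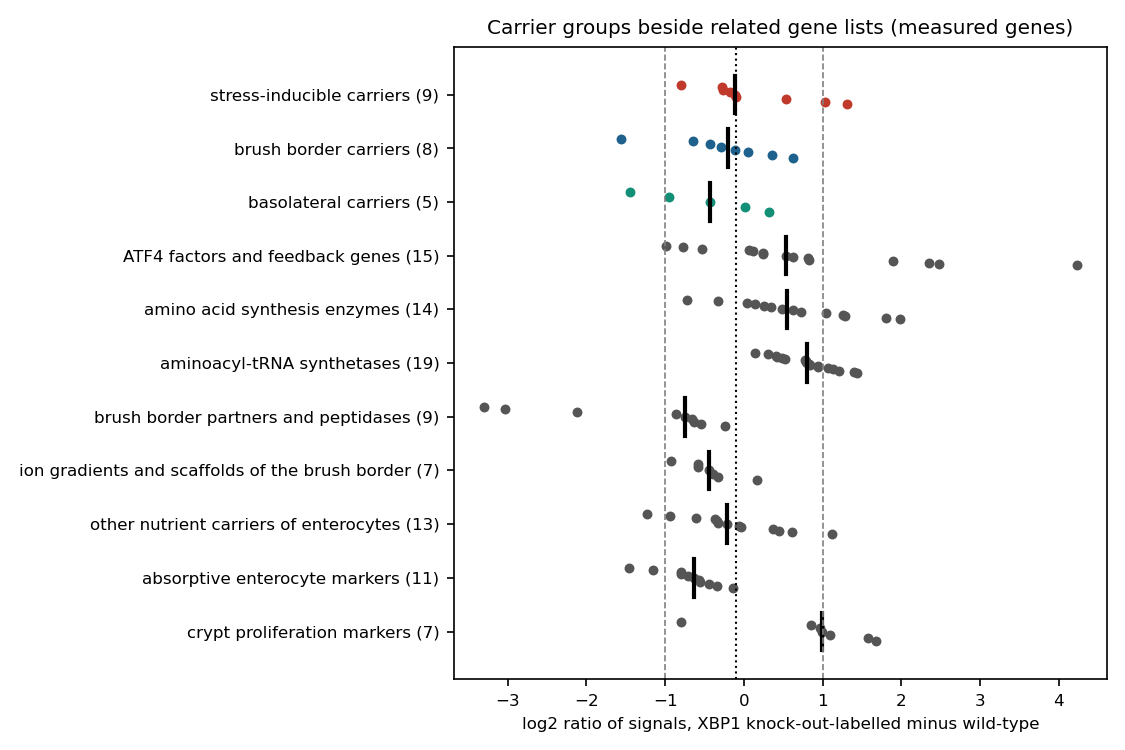
Log2 ratios of the measured genes of each list, 1 point per gene, with the list's median as a black bar and the number of genes in brackets; the dotted line is the median of all measured genes, -0.11, and the dashed lines mark 2-fold. The tRNA synthetases lie wholly above 0 and the brush border partners and peptidases wholly below it, while the 3 carrier groups straddle 0.

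Brush border carriers were split as well. Of 8 members, all measured, Slc6a20a was at least 2-fold lower, 0 were at least 2-fold higher, and 5 had ratios below 0. Their median log2 ratio was -0.20, but it turned to 0.06 after quantile normalization and 0.04 after loess, and to 0.13 and 0.58 when labelling or hybridisation spikes were made equal, so the group has no settled direction. The median of all measured genes itself went to 0.20 and 0.62 with those spikes, against -0.11.

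Slc6a20a, the sodium-coupled carrier of proline and other imino acids, gave 10822 in the wild-type and 3678 in the knock-out-labelled pool. This 2.94-fold lower signal was the lowest ratio among the 26 carriers above the floor on both arrays and came from its only probe set. Its log2 ratio of -1.56 became -0.77 with the hybridisation spikes made equal and lay between -1.56 and -1.23 under the other choices. Slc15a1, the proton-coupled carrier that takes up di- and tripeptides, went from 9001 to 5750, 1.57-fold lower.

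Slc6a19, the main carrier of neutral amino acids in the brush border, went from 27360 to 20283 on 1 probe set, a log2 ratio of -0.43, and from 13940 to 14364 on the other, a log2 ratio of 0.04. Its probe sets did not give the same direction. Slc3a1 and Slc7a9 form the heavy and light chain of the brush border exchanger for cystine and dibasic amino acids. Slc3a1 went from 14989 to 13826 and Slc7a9 from 25556 to 20979, log2 ratios of -0.12 and -0.28, both smaller than the scatter between probe sets of a gene.

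Slc1a1, the carrier of glutamate and aspartate, went from 1094 to 1139 and had log2 ratios of 0.06, 0.09 and -0.16 on its 3 probe sets. Slc36a1, a proton-coupled carrier of small amino acids found in the brush border and in lysosomes, went from 4441 to 5688, a log2 ratio of 0.36. Slc6a14, a broad carrier of neutral and cationic amino acids best known from the colon and airways, was below the floor in the wild-type pool and reached 105 in the knock-out-labelled pool, at least 1.55-fold higher. Its second probe set was likewise below the floor in the wild-type pool and at 91.1 in the other. The 3 measured markers of colonic epithelium had log2 ratios of 1.25 for Car4, at least 0.43 for Aqp8 and -0.10 for Slc26a3, and their part in this value was not tested.

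Basolateral carriers included 1 gene at least 2-fold lower out of 5 measured members, 0 at least 2-fold higher and 3 ratios below 0. The median log2 ratio was -0.43, which became -0.0018 when the probe sets of a gene were averaged by their median and 0.35 with hybridisation spikes made equal. Slc7a8, the light chain of an exchanger for neutral amino acids and a close relative of Slc7a5, went from 3930 to 1438, 2.73-fold lower on its only probe set. Its log2 ratio of -1.45 became -0.67 with hybridisation spikes made equal. Slc7a5 and Slc7a8, which both pair with Slc3a2, thus lay on opposite sides of their wild-type signals.

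Slc43a2, a facilitated carrier that lets branched-chain and other neutral amino acids leave the cell, went from 20600 to 10682, a log2 ratio of -0.95. The remaining probe sets read -0.04 and -0.38, so the size of the difference depends on the probe set. Slc16a10, which releases aromatic amino acids, stood at 7303 and 5409, a log2 ratio of -0.43, close to the -0.41 of a second bright probe set, whereas 2 dim ones gave 0.41 and at least 0.60. Slc7a7 went from 13581 to 13741 and Slc7a6, its more widely expressed relative, from 102 to 127, log2 ratios of 0.02 and 0.32 that are smaller than the scatter between probe sets. A second probe set of Slc7a6 went from below the floor to 92.9, at least 0.45.

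**Figure D4:**
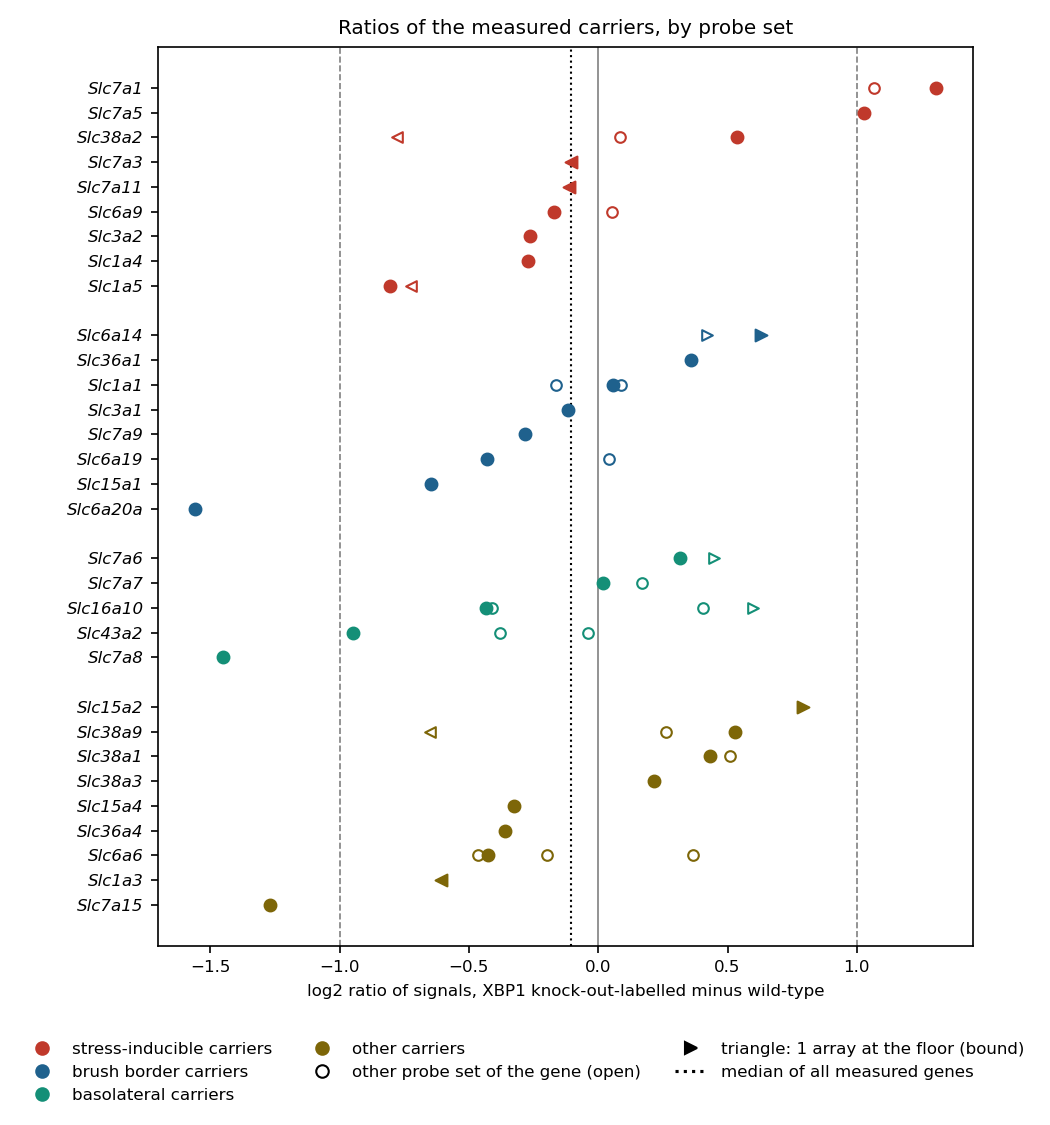
Log2 ratios of the 31 measured carriers, 1 row per gene, with the probe set that stands for the gene filled and its other measured probe sets open; triangles are bounds, where 1 array was at the floor, the dashed lines mark 2-fold and the dotted line is the median of all measured genes, -0.11. Slc7a1 and Slc7a5 lie beyond the upper line, and Slc6a20a, Slc7a8 and Slc7a15 beyond the lower one.

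No gap separated the stress-inducible from the brush border carriers. The difference of their medians was 0.09 on the log2 scale and changed sign under 5 of the 10 other ways of processing, running from -0.08 to 0.17. Against the basolateral carriers the difference was 0.32 and lay between 0.17 and 0.59, except for -0.10 with the median over probe sets. The basolateral group has 5 genes, and 2 of them, Slc7a8 and Slc43a2, set its lower end.

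Markers of absorptive enterocytes were lower as a whole. All 11 measured markers of absorptive enterocytes had ratios below 0, with a median of -0.64. Their summed signal, which the brightest probe sets weigh most, was 518091 in the wild-type and 327403 in the knock-out-labelled pool. In bulk RNA, fewer cells of a type and less RNA per cell cannot be told apart. This median became -0.05 after quantile normalization, -0.19 after loess and 0.15 with hybridisation spikes made equal. The part of this shift in the ratios of the absorptive carriers was not tested. As reported, Slc6a20a, Slc7a8 and Slc43a2 lay further below 0 than the marker median and Slc16a10 and Slc6a19 less far below. Slc15a1, at -0.65, was almost level with it. After quantile normalization and loess, however, Slc15a1 stood at -0.51 and -0.52, further below 0 than the marker medians of -0.05 and -0.19. The order of Slc16a10 turned after quantile normalization and loess, where its ratio was -0.32 in both. That of Slc6a19 turned after quantile normalization, where its ratio was -0.10. With the median over probe sets the marker median was -0.70, and Slc43a2 at -0.38 and Slc15a1 at -0.65 then lay less far below 0.

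The enzymes that release the substrates of these carriers were lower too. Brush border partners and peptidases had 9 of 9 ratios below 0, 3 at least 2-fold lower and a median of -0.74. That median became -0.32 after quantile normalization and -0.40 after loess. With hybridisation spikes made equal it was 0.04, and 5 of the 9 ratios were above 0. The peptidase Naaladl1 stood at -3.30, the aminopeptidase Xpnpep2 at -3.03 and the meprin subunit Mep1a at -2.12, against -0.63 for aminopeptidase N (Anpep), -0.54 for Enpep and -0.24 for Mme. Of the genes that maintain ion gradients and scaffolds there, 6 of 7 had ratios below 0, with 0 past 2-fold in either direction. The scaffold gene Pdzk1 had -0.93, the scaffold gene Slc9a3r1 -0.58, and Slc9a3, the sodium and proton exchanger that sustains peptide uptake, 0.17.

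Carriers for other nutrients were also examined. Of 13 measured, 1 passed 2-fold in each direction, and the median was -0.22. The fructose carrier Slc2a5 had 1.12 and the monocarboxylate carrier Slc16a1 0.62, whereas the vitamin C carrier Slc23a1 had -1.23, the folate carrier Slc46a1 -0.94 and the glucose carrier Slc5a1 -0.60.

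Among the other carriers, 9 of 14 were measured and Slc7a15 alone was at least 2-fold lower. Slc7a15, a light chain of the Slc7 family that carries aromatic amino acids in mice, went from 1962 to 814, 2.41-fold lower on its only probe set. With labelling spikes made equal its log2 ratio of -1.27 became -0.94, and with hybridisation spikes made equal -0.49. Slc15a2, the relative of Slc15a1 best known from kidney, was below the floor in the wild-type pool and reached 118 in the other, at least 1.73-fold higher, while its other 2 probe sets were below the floor on both arrays.

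The taurine carrier Slc6a6 went from 5593 to 4166, a log2 ratio of -0.42. From brighter to dimmer, the others of its probe sets gave -0.46, -0.20 and 0.37. They did not share a direction. Slc38a1, a glutamine carrier of the same family as Slc38a2, went from 468 to 630, and both of its probe sets were higher, with log2 ratios of 0.43 and 0.51. Slc38a9, a lysosomal arginine sensor of the growth-control kinase mTOR, was dim at 112 and 161, and its probe sets ran from at most -0.65 to 0.53. The remaining measured genes, Slc38a3, Slc15a4, Slc36a4 and Slc1a3, had log2 ratios from -0.61, a bound, to 0.22. Slc1a2, Slc7a2, Slc38a4, Slc38a5 and Slc43a1 did not exceed the floor on either array.

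Slc38a9 acts in the lysosomal machinery that reports amino acids to mTOR, and the other genes of that machinery were examined with it. Of 19 measured, 1 passed 2-fold in each direction, and the median was -0.07. The lower one was Sesn1, at -1.03, and the higher one the arginine sensor Castor1, for which 1.07 is a bound because its wild-type value was under the floor.

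Taking the 31 measured carriers as 1 set, 2 were higher and 3 lower by 2-fold, 6.45% and 9.68% against 2.25% and 5.08% of all measured genes. At 1.5-fold, 4 carriers were higher and 7 lower, 12.9% and 22.6% against 7.84% and 16.3% of all genes. At 3-fold no carrier passed in either direction, against 0.429% and 1.05% of all genes. Ratios below 0 made up 61.3% for the carriers and 60.2% for all measured genes. With 31 genes, a handful of calls separates these shares, and they are given as counts only.

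By mean signal, the carriers fell into 4 classes. Among the 1242 genes with a mean signal of 4359 or more the median log2 ratio was -0.19, and the 11 carriers of that class had a median of -0.42, with 1 at least 2-fold lower and 0 higher. In the class next to it, down to 1090, the 4 carriers had a median of -0.61, 2 of them at least 2-fold lower, against -0.05 over 2626 genes. Between 272 and 1090 the 5 carriers had a median of -0.17 and the 3444 genes -0.02. Among genes with a mean signal under 272, where 11 carriers lay, the median was -0.18 over all 5514 genes and 0.22 over the carriers. This dim class holds Slc6a14 and Slc15a2, which were measured only through the knock-out-labelled array. It also holds Slc7a11, Slc7a3 and Slc1a3, which were measured only through the wild-type array.

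Markers of other cells were checked for the same pools. Crypt proliferation markers were higher, with 6 of 7 measured ratios above 0, 3 at least 2-fold higher and a median of 0.99. Their summed signal was 3736 in the wild-type and 9343 in the knock-out-labelled pool, with Olfm4 alone at 1359 and 4341. Lgr5 went the other way, from 118 to below the floor, at most -0.79, and Ascl2 was below the floor on both arrays. The part of the crypt proliferation markers in the ratios of Slc7a1 and Slc7a5 was not tested. All 6 goblet cell markers had ratios below 0, with a median of -0.79. The 4 measured Paneth cell markers split, with -4.00 for Itln1 and -3.26 for Lyz1 against 0.50 for Mmp7 and 0.45 for Ang4. Markers of T cells, B and plasma cells and macrophages had medians of -0.50, -0.47 and -0.64 over 3, 4 and 5 genes, and 11 of these 12 ratios were below 0. Markers of cells outside the epithelium were low or absent in part. Of the smooth muscle markers, Acta2 stood at 621 and 529, 3 of 4 measured ratios were below 0 with a median of -0.26, and Cnn1 was below the floor on both arrays. Enteric glia had a median of -0.56 over Gfap and Sox10, with S100b below the floor on both arrays. Enteric neurons had a median of -1.14 over Tubb3 and Ret, which fell short of the floor on the knock-out-labelled array, and Elavl4 and Uchl1 did so on both. Exocrine pancreas had a median of -0.73 over Cela1 and Prss2, with Cpa1 and Ctrb1 below the floor on both arrays. The red cell gene Hba-a1 had at most -0.55, and Alas2 was below the floor on both arrays.

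Regional markers were mixed. Of the ileal markers, Slc51b had a log2 ratio of 0.37, Slc51a -0.34, Fabp6 -1.13 and Fgf15 at most -0.46, and Slc10a2 was below the floor on both arrays. Of the 5 measured markers of the proximal intestine 3 had ratios above 0 and 2 were at least 2-fold lower, with a range from -1.16 for Lct to 0.95 for Slc40a1 and a median of 0.17.

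**Figure D5:**
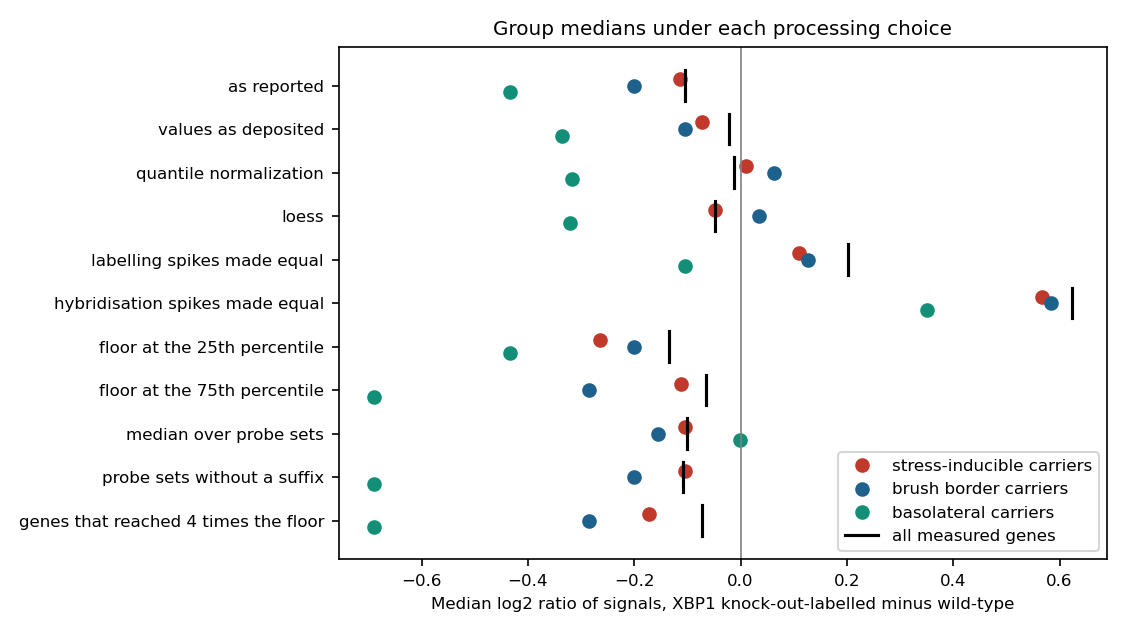
Median log2 ratio of the stress-inducible, brush border and basolateral carriers (coloured points) and of all measured genes (black bars) under each processing choice, 1 row per choice. The first row holds the values -0.11, -0.20 and -0.43 given above; the choice of spikes moves all groups and all genes together, and the stress-inducible and brush border medians change order.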

How the data were processed

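Each sample was 1 Affymetrix mouse expression array hybridised with biotin-labelled cRNA from 1 pool of 3 mice. The deposited values are linear intensity signals computed by the authors with MAS5, per the submitters' processing notes, and the trimmed mean of both arrays, leaving out 2% of probe sets at each end, was 500. Of 45037 non-control probe sets, 34945 carried 1 gene symbol, and 99.4% of these matched RefSeq's gene table. Both arrays were scaled to the same 75th percentile, signals under the 50th percentile (68.1) were set to it, and log2 ratios were taken with Python 3.11.15, numpy 2.4.6, pandas 2.3.3 and, for loess, statsmodels 0.14.6. A gene was read by the probe set with the highest mean signal.

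The members and lists were chosen with earlier results of these data known, so no list is independent evidence. A gene counted as different at 2-fold, and 1.5-fold and 3-fold were also counted. Carriers of the 3 functional groups were named with both signals, the other carriers where past 2-fold or where probe sets disagreed, and up to 3 genes at each end of each further list. Slc15a2, Slc6a6, Slc38a1 and Slc38a9 were singled out after their values were seen, as were the signal classes. Alternatives changed the scaling, the floor, the probe set rule and the fold. A stricter filter, for genes that reached 4 times the floor, was added after seeing the data. Promoters came from RefSeq (GRCm38.p6). The calculations were tested on simulated data.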

Additional observations from a re-analysis of the deposited data

How the results depend on the processing

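With hybridisation spikes made equal, which put the median of all measured genes at 0.62, the median log2 ratios were 0.57 for stress-inducible, 0.58 for brush border, 0.35 for basolateral and 0.44 for other carriers. At least 2-fold higher were then 3 stress-inducible, 2 brush border, 1 basolateral and 4 other carriers, and 0 of any group were at least 2-fold lower. Over all measured genes, 20.6% were then higher and 0.982% lower. With labelling spikes made equal, 0 other carriers were at least 2-fold lower, against 2.52% of all measured genes. Taking the median over probe sets put the basolateral median at -0.0018 and the difference between stress-inducible and basolateral medians at -0.10. At 1.5-fold, 1 stress-inducible, 2 brush border, 2 basolateral and 2 other carriers were lower. Higher were 2 stress-inducible, 1 brush border and 1 other carrier. The shares over all measured genes were 16.3% lower and 7.84% higher. At 3-fold, 0 stress-inducible carriers were higher, and 0 brush border, 0 basolateral and 0 other carriers were lower, against 0.429% higher and 1.05% lower of all genes. With the floor at the 25th percentile, 2 stress-inducible, 1 brush border and 2 other carriers were higher. Lower were 1 stress-inducible, 1 brush border, 1 basolateral and 4 other carriers. Of all measured genes, 6.85% were then higher and 15.2% lower. With the floor at the 75th percentile, or with the added filter of 4 times the floor, 1 stress-inducible carrier was higher, since Slc7a5 is then too dim to be counted. Apart from this filter, the fold and the spikes, the cause of these changes was not tested. Making spikes equal multiplies each array by 1 factor, which moves the ratio of every gene above the floor on both arrays by the same amount. With hybridisation spikes made equal, 28 of 30 single carriers moved by more than the scatter between probe sets, through this shared shift, which is not particular to carriers. That scatter was also passed by 4 of 31 with the lower floor, 3 of 31 with the median over probe sets and 1 of 20 with the higher floor. No paired analysis was possible because each genotype has 1 array. Signal over background limits the dim members: 5 of the 36 carriers were below the floor on both arrays and 5 more on 1 array, where a ratio is a bound.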
